A study of Mus musculus with 7 samples.

Results

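The 9 genes studied here encode myosin heavy chains, 7 of them sarcomeric (*Myh1*, *Myh2*, *Myh3*, *Myh4*, *Myh7*, *Myh7b*, *Myh8*) and 2 nonmuscle (*Myh9*, *Myh10*), and were measured in cultured mouse muscle stem cells (MuSCs). They were chosen by gene symbol and make up 9 of the 56748 genes in the count files. RNA was sequenced as long-read direct cDNA in 7 libraries, 3 from WT mice and 4 from mice homozygous for *Jag2sm*. *Jag2sm* is a naturally occurring hypomorphic allele of the NOTCH ligand gene *Jag2*, carried by the whole animal, although the genotype label of these samples reads Jag2-/-. All samples were MuSCs from adult hindlimb muscle, sorted magnetically as Integrin α7-positive cells after removal of CD31-, CD45- and Sca1-positive cells, and all were kept in growth medium with serum and bFGF. The sources used here give no age in weeks, sex or passage for a library. The labels do not say whether replicates came from separate animals or cultures. The p-values therefore measure the spread between these samples, which may be technical. Chi-square per degree of freedom, a measure of how far the counts of 2 libraries differ, was 2.12 for WT replicates 2 and 3. It was 2.71 for *Jag2sm* replicates 2 and 4, and 8.94 to 10.7 for every other pair within a genotype. Why these 2 pairs were closer was not tested.

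Myosin heavy chains are the motor subunits of myosin II. Sarcomeric heavy chains build the thick filaments of striated muscle, and a muscle cell uses different genes at different stages, with *Myh3* (embryonic) and *Myh8* (perinatal) in developing and regenerating fibres, *Myh1*, *Myh2* and *Myh4* in adult fast fibres and *Myh7* in slow fibres and heart. Nonmuscle heavy chains form small contractile filaments in nearly all cells, MuSCs included, and serve adhesion, migration and cell division.

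In *Jag2sm* MuSCs the sarcomeric genes stood below WT, and the nonmuscle genes *Myh9* and *Myh10* stood above WT without passing the test (adjusted p = 0.0681 and 0.301). All 5 sarcomeric genes with enough counts to be tested fell, by 9.25-fold (*Myh3*) to 47.0-fold (*Myh4*), while *Myh2* and *Myh7b* had too few. *Myh3*, the most abundant of the 9 per length in each WT library, was second to *Myh9* in each *Jag2sm* library. Of 9489 genes tested, 6.26% were called at an adjusted p under 0.05, 4.84% lower and 1.42% higher (edgeR quasi-likelihood test, Benjamini-Hochberg adjustment). Every *Jag2sm* library lay below every WT library in all 7 sarcomeric genes and above every WT library in both nonmuscle genes, against 12.2% and 10.3% of the tested genes.

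Of the sarcomeric genes 5 form a cluster on chromosome 11, all on the plus strand of GRCm39. *Myh3* lies at chr11:66969126-66993117, *Myh2* at chr11:67061838-67088989, *Myh1* at chr11:67089132-67116631, *Myh4* at chr11:67128336-67151274 and *Myh8* at chr11:67167746-67199462. *Myh7* (chr14:55208141-55232084, minus strand) and *Myh7b* (chr2:155453096-155476234, plus strand) lie elsewhere, as do *Myh9* (chr15:77644785-77726381, minus strand) and *Myh10* (chr11:68582385-68707470, plus strand, outside the cluster). Their canonical transcripts in GENCODE M39 have 38 to 42 exons and 5954 to 7803 bases.

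The clustered genes share much of their coding sequence, which may bear on how surely a read is given to 1 of them. *Myh1* and *Myh2* were identical at 91.0% of aligned coding bases, with 1 unbroken run of 268 identical bases. *Myh1* and *Myh4* were 90.1% identical, whereas *Myh3* was 80.2% to 81.0% identical to the other 4 genes of the cluster. *Myh9* and *Myh10* were 74.1% identical to each other and at most 55.8% identical to any sarcomeric gene. The division of reads among *Myh1*, *Myh2*, *Myh4* and *Myh8* may therefore be less certain than the values of *Myh3*, *Myh9* and *Myh10*. How surely these long reads were placed was not tested. The least alike gap-free stretch of 60 coding bases in the cluster is shown because such stretches are where a read can be told apart, with capitals at the 40 positions that differ in at least 1 gene.
Myh3: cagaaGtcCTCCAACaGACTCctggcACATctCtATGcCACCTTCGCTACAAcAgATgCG
Myh2: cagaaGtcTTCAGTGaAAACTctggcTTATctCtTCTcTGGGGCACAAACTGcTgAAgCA
Myh1: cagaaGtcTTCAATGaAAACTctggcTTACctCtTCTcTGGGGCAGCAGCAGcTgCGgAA
Myh4: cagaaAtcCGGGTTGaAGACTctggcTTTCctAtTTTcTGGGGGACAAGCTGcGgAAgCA
Myh8: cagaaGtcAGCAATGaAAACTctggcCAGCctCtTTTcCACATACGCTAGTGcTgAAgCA
These bases are coding exon sequence at chr11:67072110-67072169 in *Myh2*, chr11:67099928-67099987 in *Myh1*, chr11:67139521-67139580 in *Myh4* and chr11:67180602-67180661 in *Myh8*. In *Myh3* they span an intron between chr11:66979893 and chr11:66980068.

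**Figure D1:**
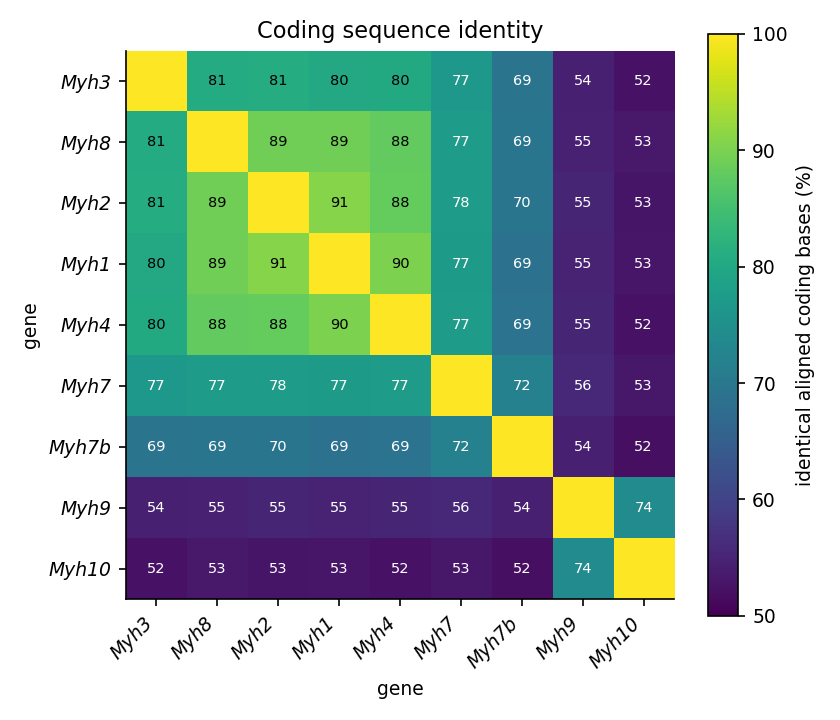
Percent of aligned coding bases that are identical between each pair of the 9 genes, from the canonical transcripts. *Myh1*, *Myh2*, *Myh4* and *Myh8* form a block at 87.9% to 91.0%, and the nonmuscle pair stands apart from the sarcomeric genes.

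The promoters of the 9 genes were taken from RefSeq (GRCm38.p6) and each was found once, letter for letter, on the gene's chromosome in GRCm39. The 250 bases before the start sites of *Myh1*, *Myh2*, *Myh4* and *Myh8* share 1 run of 14 bases, which was looked for in these 4 genes after their sequences had been seen. It occurs on either strand in 4 of 32536 such windows of mouse genes, and those are the windows of these 4 genes. It is shown in capitals with 8 bases on each side. Of the 4 genes, *Myh1*, *Myh4* and *Myh8* were called lower in *Jag2sm* and *Myh2* was not tested, while *Myh3* and *Myh7*, also called lower, lack the run.
Myh1: gggaatatTTCTAATTATATCCaaacatcc
Myh2: aaaaatatTTCTAATTATATCCaaccattc
Myh4: agaaatatTTCTAATTATATCCattcacag
Myh8: atgaatacTTCTAATTATATCCgaagatgc
On the plus strand these lie at chr11:67090760-67090789, chr11:67061720-67061749, chr11:67128472-67128501 and chr11:67167888-67167917. The run begins 160, 125, 158 and 54 bases before the respective RefSeq starts. The windows of *Myh1*, *Myh4* and *Myh8* also fall within exons of other GENCODE transcripts of the same genes that start earlier.

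The promoter of *Myh3* is shown beside that of *Myh9* because these 2 genes led their classes, with matches to the E-box CANNTG and to TATAAA (on either strand) in capitals.
Myh3: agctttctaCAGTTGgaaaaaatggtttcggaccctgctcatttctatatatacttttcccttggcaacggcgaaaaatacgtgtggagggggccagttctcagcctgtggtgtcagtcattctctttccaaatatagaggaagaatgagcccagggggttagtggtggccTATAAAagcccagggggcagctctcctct
Myh9: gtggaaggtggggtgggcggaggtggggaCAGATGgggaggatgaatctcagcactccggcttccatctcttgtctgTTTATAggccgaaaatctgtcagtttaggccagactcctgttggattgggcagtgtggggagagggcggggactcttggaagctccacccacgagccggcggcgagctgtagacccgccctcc
The *Myh3* window is chr11:66968926-66969125 on the plus strand and the *Myh9* window chr15:77726376-77726575 on the minus strand, with 48.5% and 61.0% G and C. Across all 250-base windows 66.2% hold the E-box and 12.3% hold TATAAA, and among the 9 genes 7 and 5 did. The MEF2 motif was in none of the 9 windows and in 0.513% of all windows. These matches describe the letters only.

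The libraries held 187834 (WT replicate 1) to 1937581 counts on genes, and 3 counts correspond to 17.3 CPM (counts scaled to 1000000 per library) in WT replicate 1 and to 1.48 to 4.24 CPM in the other 6. *Jag2* itself, which the allele alters without deleting it, was 80.7, 114 and 116 CPM in WT and 42.4, 78.8, 71.9 and 77.4 CPM in *Jag2sm* (log2 fold change -0.64 ± 0.24 SE, adjusted p = 0.166). All 7 MuSC and myoblast markers were detected and tested, and *Des* alone among them was called (-1.63, adjusted p = 0.0245). Sums of endothelial, immune and glial markers were at most 14.1, 5.69 and 5.66 CPM. Fibro-adipogenic markers summed to 0, 15.5 and 16.1 CPM in WT and to 29.7, 44.9, 6.41 and 31.8 CPM in *Jag2sm*. These sums were mostly *Cd34* (31 reads in WT and 88 in *Jag2sm*) and *Ly6a* (6 and 43), while *Pdgfra* had 1 and 7 reads and *Dcn* 3 and 0. The part of these markers in the results was not tested. The markers *Kdr*, *Ptprc*, *Adgre1*, *Cd3e* and *Lum* were at 0 in every library. The 5 mural markers summed to 1026 to 1921 CPM in WT and to 847 to 2285 CPM in *Jag2sm*, mostly *Acta2* (1583 ± 523 and 1330 ± 676 CPM, SD). Of the others *Rgs5* stood at 645 CPM in *Jag2sm* replicate 1 and at 11.5 to 40.4 CPM elsewhere, *Cspg4* averaged 15.9 and 3.45 CPM, *Pdgfrb* 3.00 and 0.961 CPM, and *Myh11* had 0 and 2 reads. WT replicate 1 stood apart: 45.1% of its aligned reads fell on no gene (20.8% to 25.7% in the others). It was the highest of the 7 in 7 of 8 fibre markers, though its *Ckm* (17.3 CPM) and *Pvalb* (5.76 CPM) were at or below its depth limit. The exception was *Mylpf* (3349 CPM against 5399 and 6409 CPM in the other WT libraries). Of the 7 MuSC and myoblast markers WT replicate 1 was the lowest in 3 (*Pax7*, *Myf5*, *Vcam1*) and the highest in 2 (*Itga7*, *Des*). Unaligned reads were 45.95% to 50.8% in *Jag2sm* replicates 1, 2 and 4 and 2.44% to 3.24% in the other 4 libraries. Without WT replicate 1, 6 sarcomeric genes were called lower, with 8 of the heavy chain genes tested in place of 7. The log2 fold change was then -2.66 in place of -3.84 for *Myh1* and -3.50 in place of -5.05 for *Myh7*. *Jag2sm* replicate 3, with 3.07% unaligned reads, had the lowest summed sarcomeric level of the 7 libraries. The part of WT replicate 1 and of the unaligned reads in the difference between genotypes was not tested.

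*Myh3*, which encodes the embryonic heavy chain and is switched on as myoblasts differentiate, stood at 2623, 2006 and 2155 CPM in WT replicates 1 to 3. In *Jag2sm* replicates 1 to 4 it stood at 307, 212, 70.0 and 391 CPM. The groups did not overlap, and the highest *Jag2sm* library was far below the lowest WT library. The means were 2261 ± 322 CPM (SD, n = 3) and 245 ± 138 CPM (SD, n = 4). *Myh3* fell by 3.21 on the log2 scale (SE 0.475, adjusted p = 0.00539), with 5830 reads in WT and 1146 in *Jag2sm*. In bulk RNA, fewer cells that express these genes and less of their RNA in each cell cannot be told apart.

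*Myh8*, the perinatal heavy chain, stood at 1015, 579 and 575 CPM in WT and at 26.9, 47.0, 9.36 and 111 CPM in *Jag2sm*. WT replicate 1 was highest and *Jag2sm* replicate 3 lowest, again with no overlap. *Myh8* fell by 3.88 on the log2 scale (SE 0.628, adjusted p = 0.00695), and by 4.70 without *Jag2sm* replicate 4, the highest of its group.

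Among the adult fast genes, *Myh1* (type IIx) was 1280, 302 and 182 CPM in WT and 31.1, 38.7, 5.91 and 83.2 CPM in *Jag2sm*. WT replicate 1 was well above the other WT libraries, so the WT mean of 588 CPM carried an SD of 602 (n = 3). *Myh1* fell by 3.84 on the log2 scale (SE 0.80, adjusted p = 0.0185). The fall was 2.66 without WT replicate 1 (adjusted p = 0.0469) and 4.53 without *Jag2sm* replicate 4, and the call was lost without *Jag2sm* replicate 1 (adjusted p = 0.0572) or replicate 2 (0.0691).

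*Myh4* (type IIb, the fastest adult isoform) had few reads, 170 in WT and 8 in *Jag2sm*, and the largest fitted change of the 5. It was 150, 56.9 and 53.1 CPM in WT and 0, 2.07, 0.493 and 3.26 CPM in *Jag2sm*. Each WT library was above the depth limit of 3 counts and *Jag2sm* replicates 1 and 3 were below theirs. *Myh4* fell by 5.55 on the log2 scale (SE 0.588, adjusted p = 0.00153).

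*Myh2* (type IIa) was close to the depth limit, with 27 reads in WT and 5 in *Jag2sm*, and did not pass the filter on low counts. Its levels were 57.6, 8.40 and 3.79 CPM in WT and 0, 1.38, 0.986 and 0.815 CPM in *Jag2sm*. The ratio of pooled reads was -3.40 on the log2 scale (95% exact binomial interval -5.13 to -2.0, which covers counting error only), and 10 of the 27 WT reads came from WT replicate 1, the library with the fewest counts. The exact two-sided permutation test over the 35 splits gave p = 0.0286, the smallest that 3 against 4 can give.

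*Myh7*, the slow heavy chain, was 254, 27.8 and 20.9 CPM in WT and 1.41, 4.15, 0 and 3.26 CPM in *Jag2sm*. As with *Myh1*, WT replicate 1 was several times the other WT libraries. *Myh7* fell by 5.05 on the log2 scale (SE 1.07, adjusted p = 0.0200), from 109 reads in WT to 11. Its fold change moved by over 1.5 times with 5 of the libraries: it was -3.50 without WT replicate 1, -4.30 without *Jag2sm* replicate 3, -5.68 and -5.74 without WT replicates 2 and 3, and -5.70 without *Jag2sm* replicate 2. The call was lost without *Jag2sm* replicate 1 (adjusted p = 0.0547) or replicate 2 (0.0524).

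*Myh7b*, a relative of *Myh7* that also hosts a microRNA, was the second gene too low for the main test. It was 17.3, 14.9 and 8.54 CPM in WT, the first value being 3 reads, and 0, 0, 0.986 and 3.26 CPM in *Jag2sm*. The groups did not overlap (exact permutation p = 0.0286), and the pooled ratio was -3.51 on the log2 scale (95% exact interval -5.05 to -2.24, counting error only). Without the filter on low counts *Myh2* and *Myh7b* were both called lower by edgeR (adjusted p = 3.45e-05 and 4.75e-05), as by DESeq2 (0.00317 and 0.0106). The edgeR fit without the filter gave much smaller p-values for the sarcomeric genes of the main test, for *Myh1* an adjusted p of 6.27e-30 against 0.0185. For *Myh9* and *Myh10* it did not (adjusted p = 0.066 and 0.62, against 0.068 and 0.30 in the main fit). The p-values of the fit without the filter are therefore not comparable with those of the main fit.

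**Figure D2:**
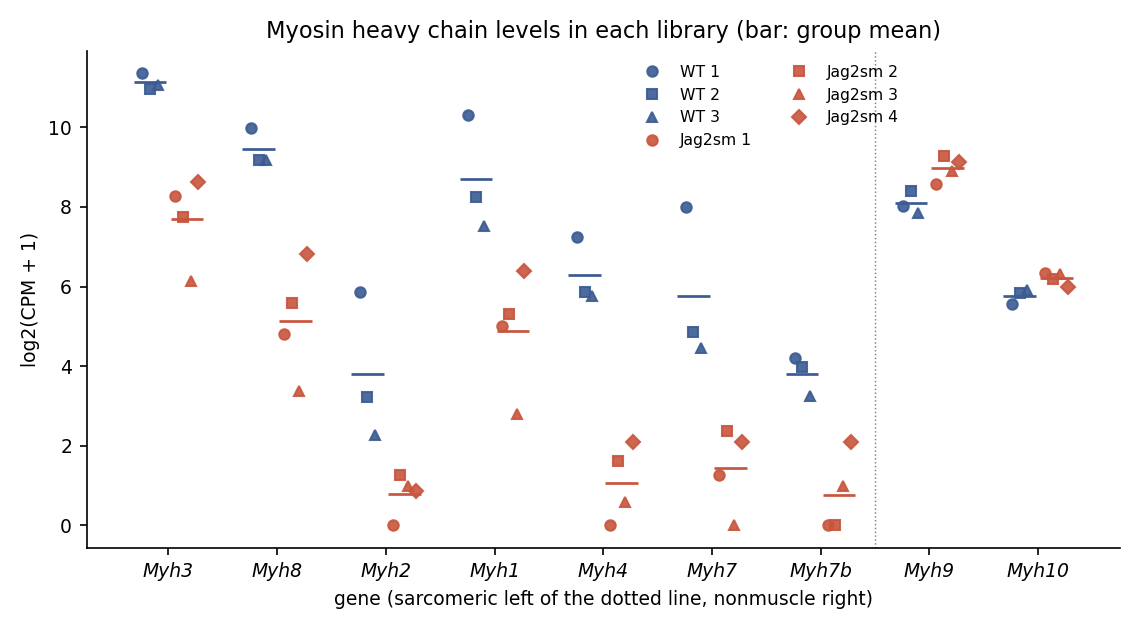
Level of each gene in each library on the log2(CPM + 1) scale, WT in blue and *Jag2sm* in red, with a bar at the group mean of the plotted values. Points at 0 are libraries with no read. For the 7 sarcomeric genes every red point is below every blue point, and for *Myh9* and *Myh10* every red point is above.

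Both nonmuscle genes stood higher in *Jag2sm*, by much less. *Myh9*, the heavy chain of nonmuscle myosin IIA, was 259, 336 and 231 CPM in WT and 382, 623, 476 and 558 CPM in *Jag2sm*. The groups did not overlap, with 807 reads in WT and 2822 in *Jag2sm*. The log2 fold change was 0.88 ± 0.25 SE, a 1.85-fold difference, which did not pass the test (edgeR, adjusted p = 0.0681). It passed with DESeq2 (0.92, adjusted p = 0.00905), with scaling to library size alone (1.04, adjusted p = 0.0366) and with the length trend of the counts removed (0.93, adjusted p = 0.0345), though not with the replicate block added to the latter (adjusted p = 0.0565). Adjusted p ranged from 0.00905 to 0.276 over its 16 alternatives.

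*Myh10*, the heavy chain of nonmuscle myosin IIB, was 46.1, 56.2 and 58.8 CPM in WT and 80.6, 71.9, 78.4 and 62.0 CPM in *Jag2sm*. *Jag2sm* replicate 4 came within a few CPM of the highest WT library. The log2 fold change was 0.40 ± 0.20 SE (adjusted p = 0.301), and no alternative called it. By the exact permutation test *Myh9* and *Myh10* each had p = 0.0571, and the 7 sarcomeric genes each had p = 0.0286.

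**Figure D3:**
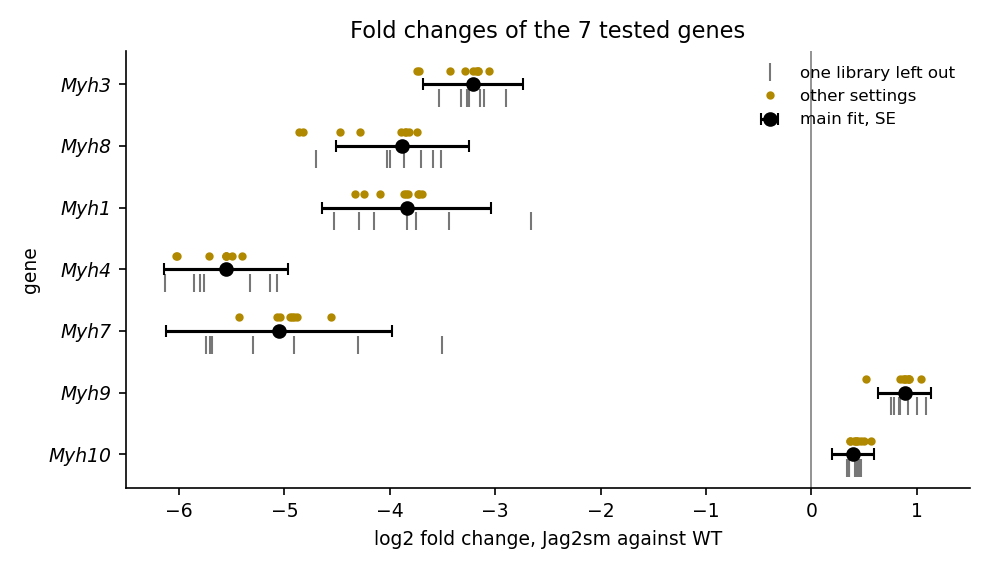
Log2 fold change of *Jag2sm* against WT for the 7 genes with enough counts to be tested. Black points and bars give the edgeR estimate and its SE, grey ticks the values with 1 library left out and yellow dots the values under the other settings. All 5 sarcomeric genes lie between -6.14 and -2.66 in every setting that tested them, and *Myh9* and *Myh10* lie above 0.

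All 9 genes have long transcripts. Among 2647 tested genes with a canonical transcript over 5000 bases, the median log2 fold change was -0.01, 6.01% were called lower and 1.25% higher, beside a median of 0.05 over all tested genes. With the length trend removed, 5 sarcomeric genes were still called lower.

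Levels of different genes were set side by side as CPM per kb of canonical transcript, and in part also as CPM. Whether counts of these long reads rise with transcript length was not tested. On the CPM per kb scale the 7 sarcomeric genes summed to 847, 484 and 489 in WT and to 59.6, 49.1, 14.3 and 95.6 in *Jag2sm*. *Myh9* and *Myh10* summed to 40.8, 52.3 and 38.5 in WT and to 61.7, 93.0, 74.0 and 83.0 in *Jag2sm*. Neither sum overlapped between the genotypes. The ratio of sarcomeric to nonmuscle transcript was 20.8, 9.26 and 12.7 in WT and 0.966, 0.528, 0.193 and 1.15 in *Jag2sm*, so that nonmuscle exceeded sarcomeric transcript in 3 of the 4 *Jag2sm* libraries and in no WT library. On the CPM scale, without division by length, nonmuscle exceeded sarcomeric in all 4 *Jag2sm* libraries (in replicate 4, 620 against 596 CPM). Sarcomeric genes made up 90.3% to 95.4% of the summed level of the 9 genes in WT and 16.2% to 53.5% in *Jag2sm*. These sums are descriptions and were not tested.

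**Figure D4:**
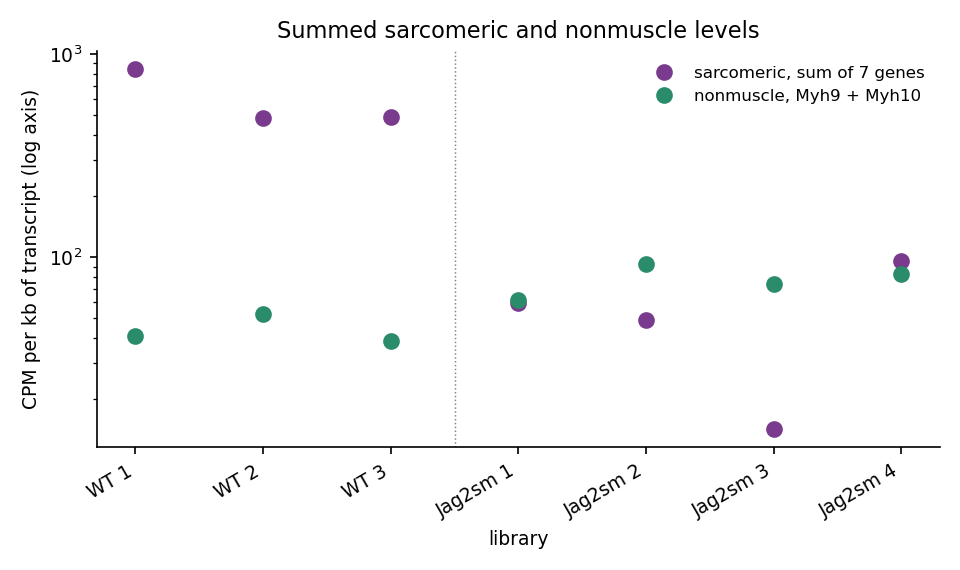
Summed CPM per kb of the 7 sarcomeric genes (purple) and of *Myh9* plus *Myh10* (green) in each library, on a log axis. The purple points drop from 484 to 847 in WT to 14.3 to 95.6 in *Jag2sm*, where the green points lie at 61.7 to 93.0.

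In the order of levels per kb, *Myh3* was first in each WT library, with 435, 332 and 357 CPM per kb. *Myh8* followed in WT replicates 2 and 3 (94.2 and 93.5), whereas in WT replicate 1 *Myh1* (170) and *Myh8* (165) were about level. *Myh9* ranked 3 in WT replicates 2 and 3 and 5 in WT replicate 1, behind *Myh7* (41.3 against 34.9). Without division by length *Myh9* was above *Myh7* in WT replicate 1 (259 against 254 CPM). In *Jag2sm* replicates 1 to 4 *Myh9* led with 51.3, 83.8, 63.9 and 75.1 CPM per kb and *Myh3* followed with 50.8, 35.2, 11.6 and 64.8. The first and second place in *Jag2sm* replicate 1 differed by under 1 CPM per kb, and stood at 382 and 307 CPM without division by length. *Myh10* ranked 6 or 8 in WT, 3 in *Jag2sm* replicates 1, 2 and 3 and 5 in *Jag2sm* replicate 4.

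The make-up of the sarcomeric transcript is given as the share of each gene in the summed sarcomeric CPM per kb, as a description. The developmental genes *Myh3* and *Myh8* together were 70.8%, 88.1% and 92.2% of it in WT and 86.7% to 92.7% in *Jag2sm*, with overlap. *Myh3* alone was 51.3% to 73.0% in WT and 67.8% to 85.4% in *Jag2sm*. *Myh8* held 19.5%, 19.5% and 19.1% in WT and 7.34%, 15.6%, 10.7% and 18.9% in *Jag2sm*, below WT in each library. Its share in *Jag2sm* replicate 4 lay within counting error of WT: of the sarcomeric reads of that library 18.6% were *Myh8* (95% exact binomial interval 15.9% to 21.6%), against 19.3% (18.2% to 20.5%) in WT replicate 2. *Myh4* held 1.83% to 2.97% in WT and 0% to 0.709% in *Jag2sm*, and the latter rests on 8 reads. The shares of *Myh1*, *Myh2*, *Myh7* and *Myh7b* overlapped between the genotypes. WT replicate 1 was the most adult in make-up, with 24.0% adult fast and 5.21% slow transcript against 6.88% to 12.2% and 0.387% to 1.43% in the other 6 libraries.

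**Figure D5:**
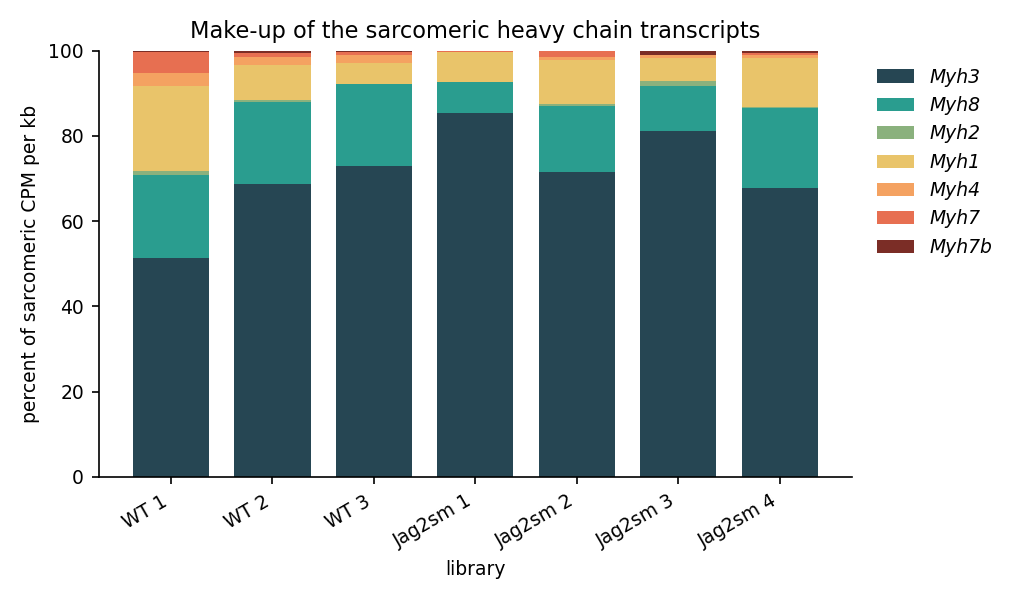
Share of each sarcomeric heavy chain gene in the summed sarcomeric CPM per kb of a library, as stacked bars that add to 100%. *Myh3* is the largest part everywhere (51.3% to 85.4%), and WT replicate 1 has the largest *Myh1* (20.0%) and *Myh7* (4.88%) parts.

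Some genes overlap these on the other strand. The strand setting of the counting is not given in the sources used here, so reads of a gene and its antisense partner cannot be told apart. *Myhas*, antisense to *Myh1* and *Myh4*, had 6 reads in WT and 1 in *Jag2sm*, and *Mhrt*, antisense to *Myh7*, had 3 and 1. The antisense gene at *Myh2*, 9430073C21Rik, had 19 and 3 reads. *Gss* and *Trpc4ap*, whose exons overlap those of *Myh7b*, had 35 and 63 reads in WT and 41 and 104 in *Jag2sm*, beside 35 and 6 of *Myh7b*. They had log2 fold changes of -0.67 and -0.31 (adjusted p = 0.400 and 0.678).

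The partners of the sarcomeric heavy chains were low as well. Of 6 sarcomeric light chain genes 4 were tested and all 4 fell, with a median log2 fold change of -3.33 beside 0.05 over all tested genes. They were *Myl2* (-4.89), *Myl1* (-3.69), *Myl4* (-2.96) and *Mylpf* (-2.63), with adjusted p from 0.00539 to 0.0115. Of 18 genes for thick filament proteins and for myosin folding and turnover 15 were tested, and 13 of these had negative fold changes (median -3.29). In the test 11 were called lower and none higher, beside 4.84% and 1.42% of all tested genes. Among the larger falls were those of the myosin binding protein gene *Mybpc1* (-4.27) and the M-band genes *Myom1* (-4.24) and *Myom3* (-3.66). Those that did not pass were *Unc45a*, *Hsp90aa1*, *Hsp90ab1* and *Trim54*.

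Markers of mature fibres moved with these genes. Of 8 such genes 6 were tested and all 6 fell (median -3.29, *Mylpf* being on both lists), and their summed level was 13280 to 20630 CPM in WT and 581 to 3072 CPM in *Jag2sm*. The other 2, *Ckm* and *Pvalb*, were near the depth limit throughout, with 11 and 10 reads in WT and 3 and 10 in *Jag2sm*. *Mb*, another gene of mature fibres, was 127 CPM in WT replicate 1 against 16.8 and 14.2 CPM in the other WT libraries. *Pax7*, which marks MuSCs, was 28.8, 95.7 and 80.6 CPM in WT and 100 to 172 CPM in *Jag2sm* (log2 fold change 0.80, adjusted p = 0.174). The part of these differences in the heavy chain values was not tested.

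Of 14 genes for the light chains and regulators of nonmuscle myosin II 12 were tested and none was called, with a median log2 fold change of 0.01. The lowest p-values were those of *S100a4*, a calcium-binding protein that binds the *Myh9* product (1.40, adjusted p = 0.0971), and *Ppp1r12a*, a subunit of myosin phosphatase (-0.55, adjusted p = 0.278). Of 15 unconventional myosin genes, whose products mostly carry cargo or link membrane to actin, 11 were tested and 1 was called. That gene was *Myo18a*, which fell by 2.08 on the log2 scale (adjusted p = 0.00656). Over all tested genes 6.26% were called, so neither list stands out by its number of calls. The other 5 conventional heavy chain genes had too few reads to be tested. *Myh6* had 7 reads in WT and 1 in *Jag2sm*, *Myh14* 8 and 8, *Myh13* 2 and 0, *Myh11* 0 and 2, and *Myh15* none, which allows up to 1.08 CPM in WT and 0.555 CPM in *Jag2sm*.

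Across the 7 libraries the genes whose log2 CPM pattern was closest to that of *Myh3* were *Tnnt3*, *Tnni2* and *Cav3*, with root mean square differences of 0.0993, 0.209 and 0.228 after centring. *Tnnt3* and *Tnni2* encode fast troponin subunits and *Cav3* a muscle caveolin. Each of these was closer to *Myh3* than any other heavy chain was, since *Myh8* differed by 0.640 and *Myh1* by 0.789. The closest to *Myh9* were *N4bp1*, *Colgalt1* and *Kif20a* (0.158, 0.162 and 0.172), and *Myh10* differed from *Myh9* by 0.401. The pattern includes the difference between the genotypes.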

How the data were processed

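Per the paper's methods and the labels, the authors used dorado for base calling, minimap2 2.17 for alignment (GRCm39) and HTSeq for counting. The deposited files hold raw counts for 56748 genes and 5 summary rows, which were used only to describe libraries. The annotation release and strand setting are not given in the sources used here. The authors' comparison table (DESeq2 fold changes and p-values) was not used. The 9 genes and all gene lists were chosen with earlier results of these data known. From each list at most 4 called genes with the largest change were named, or the 2 of lowest p where none was called. One gene that this rule names is not reported here.

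Genes were filtered with filterByExpr (minimum count 10, minimum total 15), scaled by TMM and tested with edgeR 4.0.16 (glmQLFTest, R 4.3.3) without covariates. The analysis was tested on simulated data with known changes and no outlying library, which checks the code and not these libraries. CPM used TMM-scaled library sizes. Alternatives were DESeq2 1.42.0, limma-voom (limma 3.58.1), other scalings, no filter, thinning, removal of the length trend, a replicate block, and leaving out each library. Permutation tests were two-sided and exact on log2 CPM (prior count 2). Intervals are exact binomial (SciPy 1.17.1) and cover counting error only. Coding sequences of GENCODE M39 canonical transcripts were aligned with MAFFT 7.526. Promoters came from RefSeq, where all 9 symbols matched.

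The labels give each library a batch number equal to its replicate number, without saying what the batch was. Replicates 1, 2 and 3 thus share a number across genotypes, but no label says that they were paired. Between the WT and *Jag2sm* libraries of the same number, deviations from genotype means correlated at only r = 0.0740, 0.0144 and 0.0539 over genes.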

Additional observations from a re-analysis of the deposited data

How the results depend on the processing

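Over all genes, 594 were called (459 lower, 135 higher). Without a filter on low counts 1248 were called (780 lower, 468 higher), and with libraries thinned to the smallest 260 (215 lower, 45 higher). DESeq2 called 206 higher and scaling to library size alone 241 higher, and under the latter 38.6% of calls were higher against 22.7% and the median log2 fold change of all genes was 0.21. Leaving out 1 library gave 251 to 616 calls, 221 to 466 lower and 20 to 220 higher, fewest without *Jag2sm* replicate 2 in total and without WT replicate 3 among the higher.

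Of the sarcomeric genes 5 were called lower. Thinning left 3, since *Myh4* and *Myh7* had too few counts left to be tested. DESeq2 and the fit without the filter called 7, and limma-voom called 4. Leaving out 1 library gave 3 to 6. It was 6 without WT replicate 1, WT replicate 3 or *Jag2sm* replicate 4, and 3 without *Jag2sm* replicate 2. *Myh3*, *Myh4* and *Myh8* were called in every setting that tested them, and no fold change of the 7 tested genes changed direction. limma-voom did not call *Myh7* (adjusted p = 0.0599). Of the nonmuscle genes 0 were called higher, and 1 with DESeq2, 1 with library size alone and 1 with the length trend removed, *Myh9* each time. On the CPM scale the mean *Myh8* share in WT was 19.1% in place of 19.4%.

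With the replicate block 565 genes were called, 5 sarcomeric genes lower and 0 nonmuscle genes higher, and the block changed no call among the 7 tested genes (*Myh3* -3.74, *Myh9* 0.84 on the log2 scale). *Myh2* and *Myh7b* were not tested with it. *Jag2sm* replicate 4 shares its number with no WT library, so in the block fits it adds nothing to the genotype difference. The block fits therefore compare the genotypes only within the replicate numbers that both genotypes have. With the length trend removed, adding the block lost the call of *Myh9* (adjusted p = 0.0345 and 0.0565). Depth limits *Myh2*, *Myh4*, *Myh7* and *Myh7b* most, with 5 to 11 reads over the *Jag2sm* libraries, and WT replicate 1 throughout. The cause of the changes between settings was not tested.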
